A study of Mus musculus with 4 samples.

Results

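The genes described here are the 3 Hedgehog ligand genes Shh, Ihh and Dhh and 3 genes that cells switch on when the pathway is active, Ptch1, Hhip and Gli1. They were chosen by name, as every probe of the array whose gene name was 1 of these 6. This gave 9 probes among 39429 probes and 29924 gene names. Each of the 6 genes had at least 1 probe bright enough to be tested, and 20229 gene names in all were tested. The second Gli1 probe was not well above background in any pool and was not tested.

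The ureters came from newborn (P0) mice of the NMRI strain and were kept for 8 d on membranes. Control ureters carried the genotype label Pparg (fl/?), which leaves the second Pparg allele open, and in the study's methods they are littermates without cre. Pparg-cKO ureters were Pax2-cre/+ with Pparg (fl/fl). There Pax2-cre removes the floxed exons of Pparg, a nuclear receptor of urothelial and fat cells. This cre is active in the nephric duct and the ureteric epithelium that comes from it. Each genotype received either the solvent DMSO or 2 µM purmorphamine, a small molecule that switches on Smo and so acts below the ligands. RNA was pooled from ureters sorted by sex, and the number of ureters in a pool is not given in the sources used here. There were 2 pools in each of the 4 groups, on 4 arrays with 2 dyes. Each array held the DMSO pool and the purmorphamine pool of 1 genotype and 1 sex. Replicate 1 was male, with DMSO in AlexaFluor555, and replicate 2 was female, with the dyes exchanged, so sex, dye and replicate number cannot be told apart.

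Hedgehog proteins are secreted signals. Without them the receptor Ptch1 holds the membrane protein Smo inactive; when a ligand binds Ptch1, Smo is released and the Gli transcription factors turn on target genes. Ptch1 and Hhip, a ligand-binding membrane protein, are among these targets and dampen the signal, while Gli1 is a target that amplifies it. In the developing ureter the urothelium makes Shh, and the mesenchyme around it, which gives rise to smooth muscle, is the tissue known to respond.

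Levels are normalized log2 intensities of the probe with the highest mean level of each gene, so a step of 1 is a doubling. No spot was saturated, and the share well above background ran from 66.3% to 70.5% among the 8 pools. The number of arrays limits the precision. A gene is said to have risen or fallen where limma gave a Benjamini-Hochberg adjusted p under 0.05 over all 27064 probes tested. The 2 pools of a group differed in sex and dye, so they held different animals. For each probe the p-values rest on a spread between replicates, dye included, that is estimated over all groups together. For the agonist it is the spread of the log ratios over the arrays of both genotypes. A probe therefore has the same SE in control and in Pparg-cKO ureters, whichever genotype varied more.

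The labels were checked first. The Pparg probe (mm9 chr6:115440213-115440272) read 14.79 and 15.31 in the DMSO control pools and 15.55 and 15.58 in the DMSO Pparg-cKO pools. With purmorphamine it read 15.10 and 15.18 in control and 15.95 and 16.10 in Pparg-cKO pools. All 4 mutant pools thus lay above all 4 control pools, at log2 changes of 0.51 in DMSO (adjusted p = 0.21) and 0.88 with purmorphamine (adjusted p = 0.051), and the study's rule, given below, passed Pparg as higher with purmorphamine. The floxed exons are 2 and 3. Where the probe lies relative to them was not read from an annotation, so its level was not taken as a check of the deletion. The study reports that mutant ureteric epithelium keeps a Pparg mRNA without these exons, above the control level shortly before birth. Whether that mRNA gave the higher readings here was not tested. Xist, which is expressed from the inactive X chromosome, read between 12.19 and 13.21 in the 4 pools labelled female and between 5.99 and 6.20 in the 4 labelled male, on the brighter of its 2 probes.

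Since Ptch1 and Hhip are the 2 members that passed the test for the agonist in Pparg-cKO ureters, the 250 bases before their annotated starts are shown, from RefSeq on the minus strand of GRCm38.p6, at chr13:63565736-63565985 for Ptch1 and chr8:80058009-80058258 for Hhip. Promoter windows were at hand for Ptch1, Hhip, Ihh and Dhh.
Ptch1 promoter: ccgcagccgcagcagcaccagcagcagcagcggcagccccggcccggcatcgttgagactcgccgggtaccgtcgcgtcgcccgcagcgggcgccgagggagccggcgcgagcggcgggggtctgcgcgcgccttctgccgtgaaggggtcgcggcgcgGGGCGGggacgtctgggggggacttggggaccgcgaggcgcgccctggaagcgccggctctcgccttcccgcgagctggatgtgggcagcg
Hhip promoter: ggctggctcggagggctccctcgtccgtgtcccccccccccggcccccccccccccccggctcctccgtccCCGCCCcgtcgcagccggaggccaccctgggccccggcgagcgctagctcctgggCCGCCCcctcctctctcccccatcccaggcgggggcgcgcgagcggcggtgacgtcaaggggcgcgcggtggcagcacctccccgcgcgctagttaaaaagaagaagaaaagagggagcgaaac
Capitals mark the GC box, GGGCGG or its reverse complement CCGCCC, found on either strand in 32.7% of the 32851 promoter windows of this length. G and C made up 78.4% of the Ptch1 window and 76% of the Hhip window. The Gli binding motif GACCACCCA, or TGGGTGGTC on the other strand, was in 0.225% of all windows. It was in none of the windows of Ptch1, Hhip, Ihh and Dhh, which says only that these letters are not in these 250 bases.

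Probes of 60 bases read each gene, and Ptch1, Hhip and Gli1 had 2 each. The sequences of a Ptch1 probe and a Gli1 probe are shown because the first gives a second reading of Ptch1 and the second gave no reading of Gli1.
Ptch1, second probe: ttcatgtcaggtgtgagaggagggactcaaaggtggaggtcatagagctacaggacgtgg
Gli1, second probe: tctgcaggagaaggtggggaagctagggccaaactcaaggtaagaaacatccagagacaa
The Ptch1 probe lies at mm9 chr13:63612879-63612938 and belongs to the RefSeq transcript NM_008957, whereas the Gli1 probe at chr10:126775021-126775080 belongs to the cDNA clone AK157048. The Gli1 probe that gave values, at chr10:126766967-126767026, belongs to NM_010296. The other Ptch1 probe lies at chr13:63610298-63610357, and the Hhip probes lie at chr8:82494280-82494339 and chr8:82490729-82490788. The probes of Shh at chr5:28783983-28784042, of Ihh at chr1:74991906-74991965 and of Dhh at chr15:98723465-98723524 are 1 for each gene. All lie on the minus strand, and whether they fall in exons or UTRs was not read from an annotation of this build.

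Among the ligands, Shh, the ligand of the urothelium, was lower in the mutant pools. Shh read 12.54 and 12.41 in the DMSO control pools (replicates 1 and 2) and 9.64 and 9.46 in the DMSO Pparg-cKO pools. With purmorphamine it read 12.43 and 12.81 in control and 10.18 and 10.82 in Pparg-cKO pools. All 4 mutant pools lay below all 4 control pools, and the mutant pools with purmorphamine lay above those with DMSO.

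Ihh, a ligand better known from cartilage and gut, went the other way. Ihh read 6.45 and 6.59 in the DMSO control pools and 7.90 and 7.86 in the DMSO Pparg-cKO pools. With purmorphamine it read 6.66 and 6.80 in control and 7.89 and 8.03 in Pparg-cKO pools. The genotypes did not overlap, but the control pools were close to background: 2 and 3 of 4 spots were well above it in the DMSO control pools, 3 and 4 in the control pools with purmorphamine, and 4 of 4 in every mutant pool.

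Dhh, the ligand of Schwann cells and the testis, was dim in every pool and showed no order by group. Dhh read 7.42 and 7.74 in DMSO control, 7.41 and 7.31 in control with purmorphamine, 7.41 and 7.27 in DMSO Pparg-cKO, and 7.18 and 7.77 in Pparg-cKO pools with purmorphamine. Its 2 mutant pools with purmorphamine were the lowest and the highest of the 8.

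Among the feedback targets, Ptch1, the receptor, read 9.37 and 9.40 in DMSO control, 10.21 and 10.56 in control with purmorphamine, 8.54 and 8.83 in DMSO Pparg-cKO, and 10.17 and 10.45 in Pparg-cKO pools with purmorphamine. The 2 groups with purmorphamine overlapped, and the DMSO mutant pools were the lowest of the 8. The second Ptch1 probe read 8.29 and 8.97 in DMSO control, 9.39 and 9.53 in control with purmorphamine, 8.34 and 8.45 in DMSO Pparg-cKO, and 10.22 and 10.15 in Pparg-cKO pools with purmorphamine. On this probe the DMSO groups overlapped and the mutant pools with purmorphamine were the highest, so the 2 probes ordered the groups differently.

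Hhip, the decoy that binds ligand at the cell surface, had the widest span of the feedback targets. Hhip read 13.10 and 13.86 in DMSO control, 14.82 and 14.79 in control with purmorphamine, 12.93 and 13.26 in DMSO Pparg-cKO, and 15.15 and 15.43 in Pparg-cKO pools with purmorphamine. Its second probe read 11.51 and 11.82 in DMSO control, 13.25 and 13.78 in control with purmorphamine, 10.77 and 10.67 in DMSO Pparg-cKO, and 13.26 and 13.61 in Pparg-cKO pools with purmorphamine. Both probes put all 4 purmorphamine pools above all 4 DMSO pools. The DMSO groups overlapped on the first probe and not on the second.

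Gli1, the transcriptional activator, read 12.13 and 12.79 in DMSO control, 13.70 and 13.35 in control with purmorphamine, 12.51 and 12.36 in DMSO Pparg-cKO, and 13.82 and 13.72 in Pparg-cKO pools with purmorphamine. The 2 DMSO mutant pools lay between the 2 DMSO control pools, and all 4 purmorphamine pools lay above all 4 DMSO pools.

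**Figure D1:**
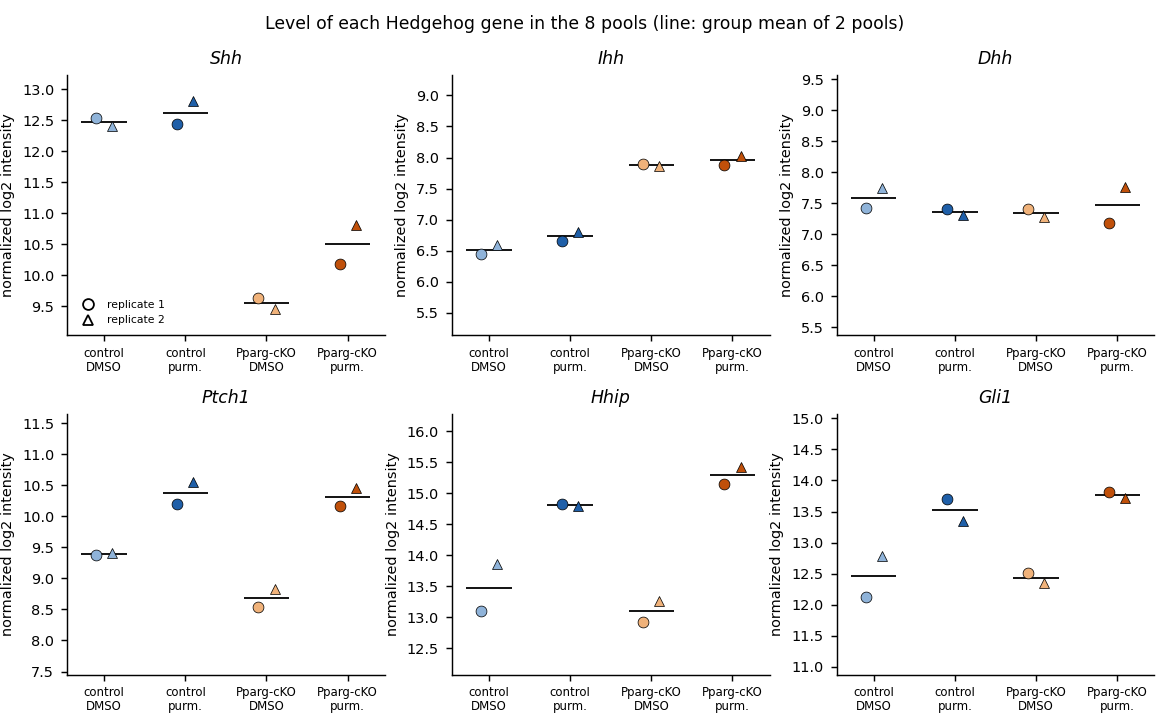
Normalized log2 intensity (vertical axis) of the 6 genes in the 8 pools, by group (horizontal axis; purm., purmorphamine), with a circle for replicate 1, a triangle for replicate 2 and a line at the group mean; each panel has its own range of the same height. Shh was lower and Ihh higher in all 4 Pparg-cKO pools, and Ptch1, Hhip and Gli1 were higher in the purmorphamine pools.

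The first comparison asked how the members differed between genotypes in DMSO. Shh fell 7.61-fold in Pparg-cKO ureters, a log2 change of -2.93 (SE 0.23, 2 pools against 2, adjusted p = 0.0026). The replicates gave -2.90 and -2.96. Ihh rose (log2 change 1.36, SE 0.10, adjusted p = 0.0026), with a size that depends on how background is handled, since the DMSO control pools were close to it. These were 2 of the 6 members, where 3.68% of all tested genes passed the same test in either direction.

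The feedback targets did not pass. Ptch1 was at a log2 change of -0.70 (95% interval -1.09 to -0.31, adjusted p = 0.081) on the brighter probe and at -0.23 on the other (adjusted p = 0.70). Hhip was at -0.38 (interval -0.97 to 0.22, adjusted p = 0.58) and at -0.94 on its second probe (interval -1.44 to -0.44, adjusted p = 0.069). Gli1 was at -0.03, with an interval from -0.57 to 0.52, and Dhh at -0.24 (interval -0.73 to 0.25).

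Without control replicate 1 the Shh change was -2.85 with an adjusted p of 0.052, and without control replicate 2 it was -2.99 with 0.063; Ihh had an adjusted p of 0.057 without control replicate 2. The Ihh change was 2.06 with the scanner's processed signals, in which 3 of the 4 control pools were at the floor of 15.

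With purmorphamine in both genotypes, the same 2 ligand genes passed. Shh fell 4.36-fold in Pparg-cKO ureters (log2 change -2.12, SE 0.23, adjusted p = 0.011). Ihh rose (log2 change 1.23, SE 0.10, adjusted p = 0.0058), or by 2.18 with processed signals. They were 2 of 6 members against 2.87% of the tested genes.

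No feedback target passed when both genotypes received the agonist, and the 2 Ptch1 probes differed. Ptch1 was at a log2 change of -0.07 (interval -0.47 to 0.32, adjusted p = 0.90), while its second probe was at 0.72 (interval 0.23 to 1.21, adjusted p = 0.14). Hhip was at 0.48 (interval -0.11 to 1.08, adjusted p = 0.43) and at -0.08 on its second probe, and Gli1 was at 0.25 (interval -0.29 to 0.80, adjusted p = 0.69). Dhh was at 0.12 (interval -0.38 to 0.61). Shh had an adjusted p of 0.061 without Pparg-cKO replicate 1 (-1.82), of 0.11 without control replicate 1 (-2.29) and of 0.16 without control replicate 2 (-1.93), and Ihh one of 0.070, 0.084 and 0.086 without these 3 arrays.

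Purmorphamine and DMSO pools shared arrays, so the agonist was read as the ratio within each array. In control ureters Ptch1 rose 2.00-fold, with log2 ratios of 0.84 in replicate 1 and 1.16 in replicate 2 (mean 1.00, SE 0.12, adjusted p = 0.046). It was 1 of 6 members where 1.20% of the tested genes passed.

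Hhip had log2 ratios of 1.72 and 0.93 in the control arrays and did not pass on its brighter probe (mean 1.33, SE 0.20, adjusted p = 0.068). On its second probe, at 1.74 and 1.96, Hhip rose 3.60-fold (adjusted p = 0.024). Gli1 had ratios of 1.57 and 0.56, the widest gap between the arrays among the feedback targets, and an adjusted p of 0.12 (mean 1.06, SE 0.25). Of the ligands, Shh was at 0.15 (interval -0.46 to 0.75), Ihh at 0.21 (interval -0.06 to 0.48) and Dhh at -0.23 (interval -0.77 to 0.31), none of which passed.

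The Ptch1 call in control ureters was lost without either control array (adjusted p = 0.11 each), without the filter on dim probes (0.083), with the replicate number as a block (0.053), with the scanner's processed signals (0.17) and with the series' value table (0.16). The latter 2 gave no call for any gene in this comparison, at ratios of 1.09 and 1.12 for Ptch1. Hhip passed on its brighter probe without either Pparg-cKO array, which left its control ratio unchanged and moved only its error and the adjustment over all genes.

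In Pparg-cKO ureters both dampers of the signal rose on both of their probes. Ptch1 rose 3.08-fold, with ratios of 1.63 and 1.62 (mean 1.62, SE 0.12, adjusted p = 0.014), and 3.45-fold on its second probe (adjusted p = 0.017). Hhip rose 4.56-fold, with ratios of 2.21 and 2.16 (mean 2.19, SE 0.20, adjusted p = 0.017), and 6.55-fold on its second probe (adjusted p = 0.011). They were 2 of 6 members, where 4.66% of the tested genes passed.

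Gli1 had ratios of 1.31 and 1.37 in the Pparg-cKO arrays. Their mean was 1.34 (SE 0.25, interval 0.71 to 1.97), with an adjusted p of 0.056. This SE is shared with the control arrays, in which the Gli1 ratios lay further apart. Shh had ratios of 0.55 and 1.36, a mean of 0.95 (SE 0.24, interval 0.35 to 1.56), with an adjusted p of 0.10. Both genes were higher in both arrays without passing the test, although Shh passed with the replicate number as a block (adjusted p = 0.038). Without Pparg-cKO replicate 1 a single Pparg-cKO array was left, at 1.36 for Shh. Gli1 passed without either control array, which left its ratio unchanged and moved only its error and the adjustment over all genes. Ihh was at 0.07 (interval -0.20 to 0.34) and Dhh at 0.13 (interval -0.41 to 0.67). Leaving out a control array did not move the ratios of Ptch1 and Hhip. Leaving out a Pparg-cKO array left a single one, at 1.62 or 1.63 for Ptch1 and 2.16 or 2.21 for Hhip. Ptch1 and Hhip lost the call with the scanner's processed signals (0.095 and 0.11) and with the series' value table (0.098 and 0.11). These 2 alternatives gave ratios of 1.85 for Ptch1 and of 2.22 and 2.20 for Hhip and no call for any gene.

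**Figure D2:**
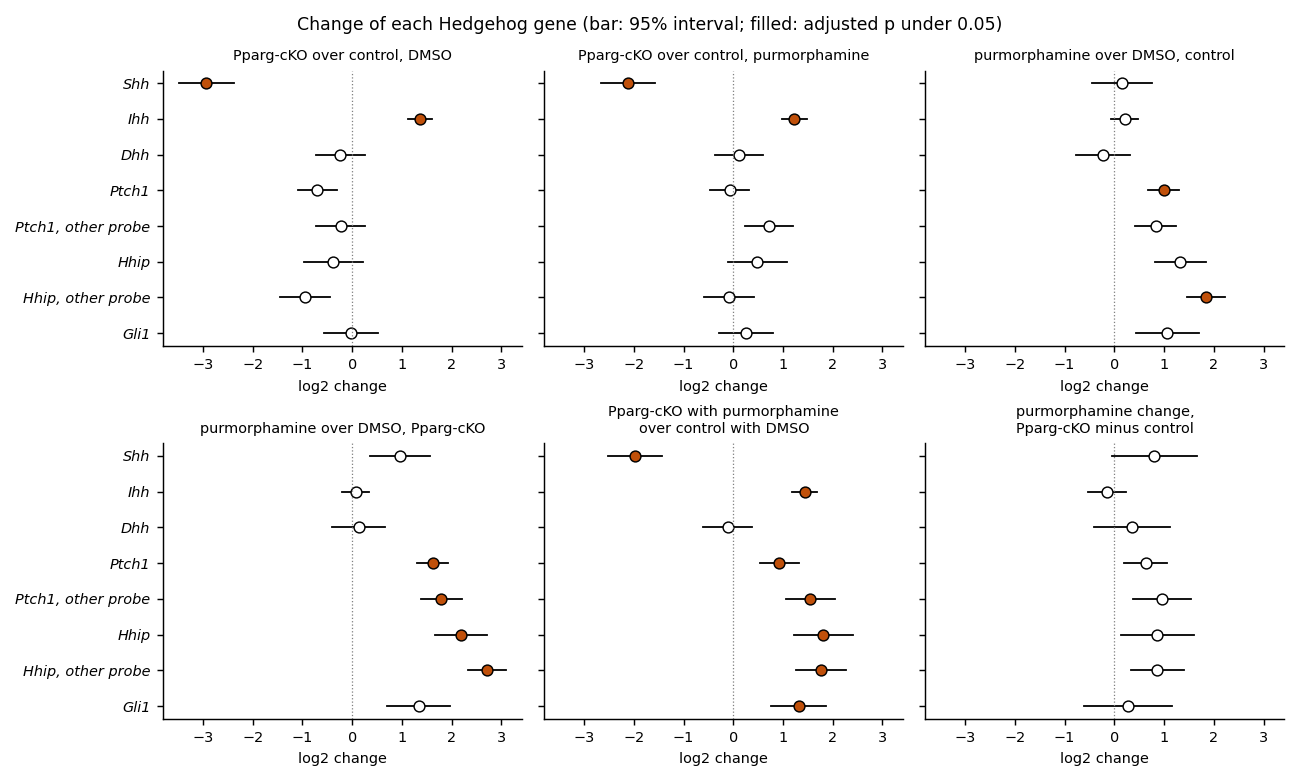
Log2 change of each member and probe (horizontal axis) in 6 comparisons, with the 95% interval as a bar; filled points had an adjusted p under 0.05. Shh and Ihh are filled in both genotype comparisons, and both probes of Ptch1 and of Hhip are filled for purmorphamine in Pparg-cKO ureters.

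The purmorphamine ratios were larger in Pparg-cKO than in control ureters for Ptch1 and Hhip, also without each array in turn, but no gene passed the test of the difference between genotypes. The difference of the ratios was 0.63 for Ptch1 (interval 0.19 to 1.07) and 0.96 on its second probe (interval 0.38 to 1.54). It was 0.86 for Hhip on both probes (intervals 0.13 to 1.59 and 0.33 to 1.40), and on the brighter probe 1.26 without control replicate 1 and 0.47 without control replicate 2. It was 0.28 for Gli1 (interval -0.62 to 1.17), and 0.78 and -0.23 without these same arrays. For Shh it was 0.81 (interval -0.05 to 1.66), 1.21 without Pparg-cKO replicate 1 and 0.40 without Pparg-cKO replicate 2. Every member had an adjusted p of 1.00.

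Over all genes 0% passed this test (0 of 20229), and 670 had an unadjusted p under 0.05. Among the alternatives run, all gave 0 except leaving out Pparg-cKO replicate 1, which gave 39. Unadjusted, the p was 0.015 and 0.0081 for the Ptch1 probes, 0.029 and 0.0090 for the Hhip probes and 0.0595 for Shh. The differences of Gli1, Ihh and Dhh were closer to their errors, at 0.28 (SE 0.35), -0.14 (SE 0.15) and 0.36 (SE 0.30).

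The treated mutant was also set against the untreated control, which shows where each member stood after the agonist. Shh stayed 3.94-fold below the DMSO control (log2 change -1.98, SE 0.23, adjusted p = 0.0060) and Ihh stood above it (log2 change 1.44, adjusted p = 0.0018, or 2.23 with processed signals). Hhip rose 3.51-fold (log2 change 1.81, SE 0.25, adjusted p = 0.0097), Gli1 2.48-fold (log2 change 1.31, SE 0.23, adjusted p = 0.019) and Ptch1 1.90-fold (log2 change 0.92, SE 0.16, adjusted p = 0.021). The second probes gave 2.93-fold for Ptch1 and 3.41-fold for Hhip.

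These were 5 of the 6 members, where 11.0% of the tested genes passed. Dhh was at -0.11 (interval -0.60 to 0.38). Ptch1 lost the call without each array in turn (adjusted p from 0.062 to 0.12), Hhip without any array but control replicate 2 (0.056 to 0.067) and Gli1 likewise (0.058 to 0.13), and Gli1 also with the replicate number as a block (0.060). Shh lost it without control replicate 1 (0.075, change -1.89). This comparison and the other 2 between genotypes use the same pools, and the values are given side by side.

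The study's own rule asked for an intensity over 100, applied here to the brighter of the 2 pools in a pair, and at least a 1.5-fold change in the same direction in both pairs, with no test. In DMSO, 3 of the 6 members passed it as lower in Pparg-cKO: Shh, Hhip and Ptch1, each on at least 1 probe, where 5.50% of the genes over the intensity threshold passed in either direction. With purmorphamine, Shh passed as lower and Ptch1, on its second probe, as higher, against 6.28% of genes. The agonist passed Ptch1 and Hhip in control ureters (6.45% of genes) and Ptch1, Hhip, Gli1 and Shh in Pparg-cKO ureters (8.67%). For the treated mutant against the DMSO control, Ptch1, Hhip and Gli1 passed as higher and Shh as lower (10.5%).

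The rule and limma differed in which members they called. The processed signals of Hhip on its second probe were 0.586 and 0.455 of the control values in the DMSO pairs, and those of Gli1 with purmorphamine were 3.03 and 1.48 times the DMSO values in control, so the second pair fell short of 1.5. Ihh stayed under the intensity of 100 and so passed in no comparison. With the agonist it also fell short of 1.5 in both genotypes. Dhh stayed under that intensity as well.

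The other genes of the pathway were described from a list of 27, all of which were tested. Between genotypes none of the 27 rose or fell, with DMSO (3.68% of all genes passed) or with purmorphamine (2.87%), and the median change was 0.02 in DMSO, beside 0.00 over all genes. With purmorphamine none passed in control ureters (1.20% of all genes), at a median of 0.16 beside 0.02 over all genes. In Pparg-cKO ureters 2 of 27 rose and none fell, where 4.66% of all tested genes passed in either direction, at a median of 0.08 beside 0.00.

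The 2 were Scube2, a secreted protein that releases ligand from the cell, and Hhat, the enzyme that attaches palmitate to the ligands. Scube2 rose 2.76-fold (adjusted p = 0.020) and Hhat 1.60-fold (adjusted p = 0.045) in Pparg-cKO ureters. In control ureters they were at log2 ratios of 0.91 and 0.24 and did not pass. The signal transducer Smo was at log2 ratios of 0.32 in control and 0.39 in Pparg-cKO, Gli2, the main activator of the family, at 0.28 and 0.40, Gli3, known mostly as a repressor, at 0.13 and 0.08, and Sufu, the inhibitor that holds Gli proteins back, at -0.17 and -0.18. None of these 4 passed in either genotype. In the treated mutant against the DMSO control 5 of 27 rose and none fell, where 11.0% of all genes passed: Hhat, Smo, the co-receptor Cdon, the cilium protein Evc and Scube3.

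Of 17 further genes reported as Hedgehog targets elsewhere, 16 were tested, and Nkx3-2 was too dim. In DMSO none rose or fell between genotypes (3.68% of all genes), and with purmorphamine 1 of 16 rose, where 2.87% of all genes passed: Bcl2, an inhibitor of cell death (1.96-fold, adjusted p = 0.046). The agonist raised 1 of 16 in control, where 1.20% of all genes passed. This was Foxd1, a forkhead factor of mesenchyme, at a list median of 0.33 beside 0.02 over all genes. In Pparg-cKO 6 of 16 rose and 1 fell, beside 4.66% of all genes, at a median of 0.28 beside 0.00.

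The 6 were the forkhead genes Foxd1, Foxl1, Foxf1 and Foxc2 and the signals Bmp4 and Wnt5a. Foxd1 read 11.79 and 11.96 in DMSO control, 13.88 and 14.07 in control with purmorphamine, 11.80 and 12.40 in DMSO Pparg-cKO, and 14.13 and 14.63 in Pparg-cKO pools with purmorphamine. No purmorphamine pool came within 1 unit of a DMSO pool. It rose 4.30-fold in control (adjusted p = 0.015) and 4.87-fold in Pparg-cKO (adjusted p = 0.011).

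Foxl1, a mesenchymal forkhead factor of the gut, read 10.76 and 10.85 in DMSO control, 11.45 and 11.78 in control with purmorphamine, 9.92 and 10.26 in DMSO Pparg-cKO, and 11.45 and 11.73 in Pparg-cKO pools with purmorphamine. Its order of groups was that of Ptch1. It rose 2.82-fold in Pparg-cKO (adjusted p = 0.014), while in control it was 1.76-fold higher (adjusted p = 0.056).

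Foxf1, a factor of the ureteric mesenchyme, rose 2.40-fold in Pparg-cKO (adjusted p = 0.023) and was at a log2 ratio of 0.59 in control (adjusted p = 0.13). Bmp4, which drives smooth muscle differentiation there, rose 1.96-fold (adjusted p = 0.039) and was 1.47-fold higher in control (adjusted p = 0.15). Foxc2 rose 1.69-fold and Wnt5a 1.64-fold in Pparg-cKO. Ccne1, a cyclin of the entry into S phase, fell 1.60-fold there (adjusted p = 0.047). Aldh1a2, which makes retinoic acid, was 1.28-fold lower in Pparg-cKO and 1.48-fold lower in control without passing, and fell 1.65-fold in the treated mutant against the DMSO control (adjusted p = 0.033). In that comparison 6 of 16 rose (Foxc2, Bcl2, Foxd1, Foxf1, Bmp4 and Foxl1) and 1 fell, where 11.0% of all genes passed. With the scanner's processed signals or the series' value table, none of these genes passed for the agonist.

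**Figure D3:**
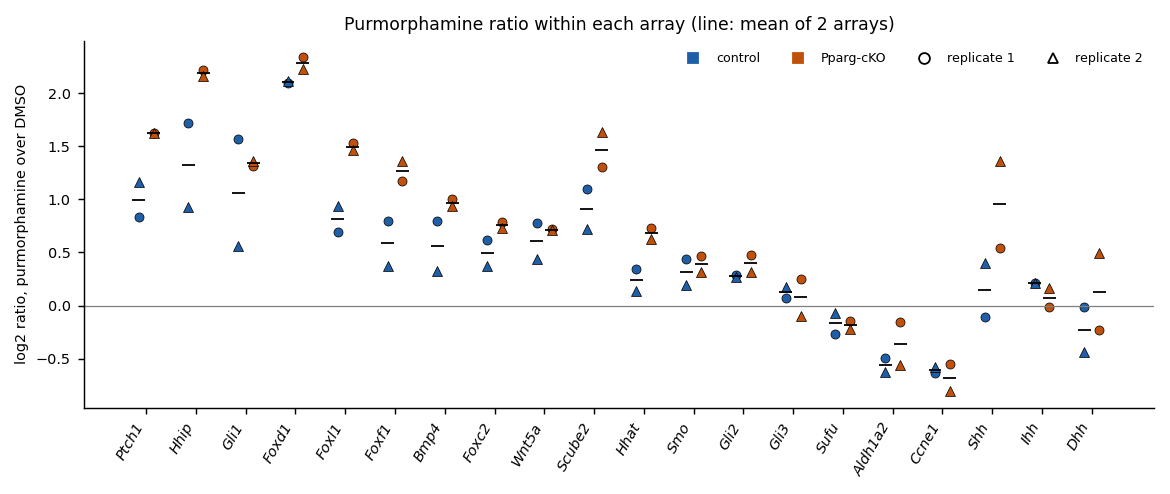
Log2 ratio of purmorphamine over DMSO within each of the 4 arrays (vertical axis) for the members, named pathway genes and named targets (horizontal axis); blue is control, orange Pparg-cKO, a circle replicate 1, a triangle replicate 2 and a line the mean of 2 arrays. On the probe of highest mean level of each gene, Foxd1 and Hhip had the highest ratios in Pparg-cKO, at means of 2.28 and 2.19. Sufu, Aldh1a2 and Ccne1 lay below 0.

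The pools hold RNA of whole ureters, so fewer cells of a type and less RNA per cell cannot be told apart. The summed level of 16 urothelial markers, with the highest probe level for Krt5, was 576211 and 644277 in DMSO control and 496021 and 553228 in DMSO Pparg-cKO pools. With purmorphamine it was 729278 and 796533 in control and 584209 and 593926 in Pparg-cKO pools. None of the 16 was below background in all pools. The sum was lower in the mutant within each treatment, as was Shh, and it was higher with purmorphamine within each genotype.

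In DMSO 4 of the 16 markers fell in Pparg-cKO ureters and 1 rose, where 3.68% of all genes passed. Krt20, a keratin of superficial cells, and the uroplakin genes Upk3b, Upk1a and Upk1b were at log2 changes of -3.70, -1.83, -1.34 and -1.31, and Epcam rose by 0.61. The general epithelial markers Cdh1, Krt8 and Krt19 were at 0.06, 0.08 and -0.05, and Krt7 and Krt18 at -0.39 and -0.13. The basal markers Krt5 and Trp63 were at 0.19 and -0.51. Upk2, Grhl3, Upk3a and Gata3 were at -0.80, -0.67, -0.24 and 0.19, and none of these markers passed. With purmorphamine in both genotypes Krt20, Upk3b and Trp63 fell and Epcam rose, where 2.87% of all genes passed. The agonist raised 6 of the 16 in Pparg-cKO ureters (Krt20, Upk1a, Upk1b, Upk2, Upk3b and Grhl3), where 4.66% of all genes passed. It lowered Epcam in both genotypes, where 1.20% of all genes passed in control. The part of these shifts in the Shh result was not tested.

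The summed level of 12 markers of ureteric mesenchyme and smooth muscle, brightest for Acta2, was 435526 and 562158 in DMSO control and 504947 and 485369 in DMSO Pparg-cKO pools. With purmorphamine it was 780494 and 745043 in control and 777380 and 867537 in Pparg-cKO pools. The sum was thus higher with purmorphamine in both genotypes, as were Ptch1, Hhip and Gli1, but so was the urothelial sum. None of the 12 was below background in all pools. None passed in control ureters (1.20% of all genes), and 2 of 12, Pdgfrb and Tbx18, rose in Pparg-cKO (4.66%). Its part in the result for the feedback targets was not tested.

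The sums and calls of the other marker lists follow. The 6 endothelial markers, brightest for Cdh5, summed to 12648 and 8305 in DMSO control, 20984 and 22389 in control with purmorphamine, 14984 and 15981 in DMSO Pparg-cKO and 29360 and 33507 in Pparg-cKO pools with purmorphamine; 2 of 6, Tek and Cdh5, rose with the agonist in Pparg-cKO (4.66% of all genes) and 1, Tek, in control (1.20%), and Kdr rose in Pparg-cKO in DMSO (3.68%). The 4 fat cell markers, brightest for Fabp4, summed to 160863 and 207897, 172784 and 142377, 86775 and 69462, and 18128 and 97947 in the same order of groups. Pparg-cKO replicate 1 with purmorphamine stood far below the other pools, and no fat cell marker passed in any of the 4 comparisons.

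The 2 mesothelial markers tested, brightest for Msln, summed to 1397 and 1572, 743.5 and 734.5, 16477 and 12539, and 13854 and 8908 in that order; Msln rose in both genotype comparisons (log2 changes 5.57 and 5.89), and Lrrn4 was not above background in any pool. Wt1, the other marker tested, was at 0.56 between genotypes in DMSO (adjusted p = 0.72) and at -1.04 with purmorphamine (adjusted p = 0.40), and fell with the agonist in Pparg-cKO, so the higher sum was that of Msln alone. The 5 leukocyte markers, brightest for Lyz2, summed to 192138 and 157538, 145297 and 106042, 190955 and 159512, and 121477 and 128380, the lower sums being those with purmorphamine, and Adgre1 fell with it in Pparg-cKO. The 4 collecting duct markers, brightest for Scnn1b, summed to between 580.0 and 918.8, and none passed. The parts of these cells in the results were not tested.

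**Figure D4:**
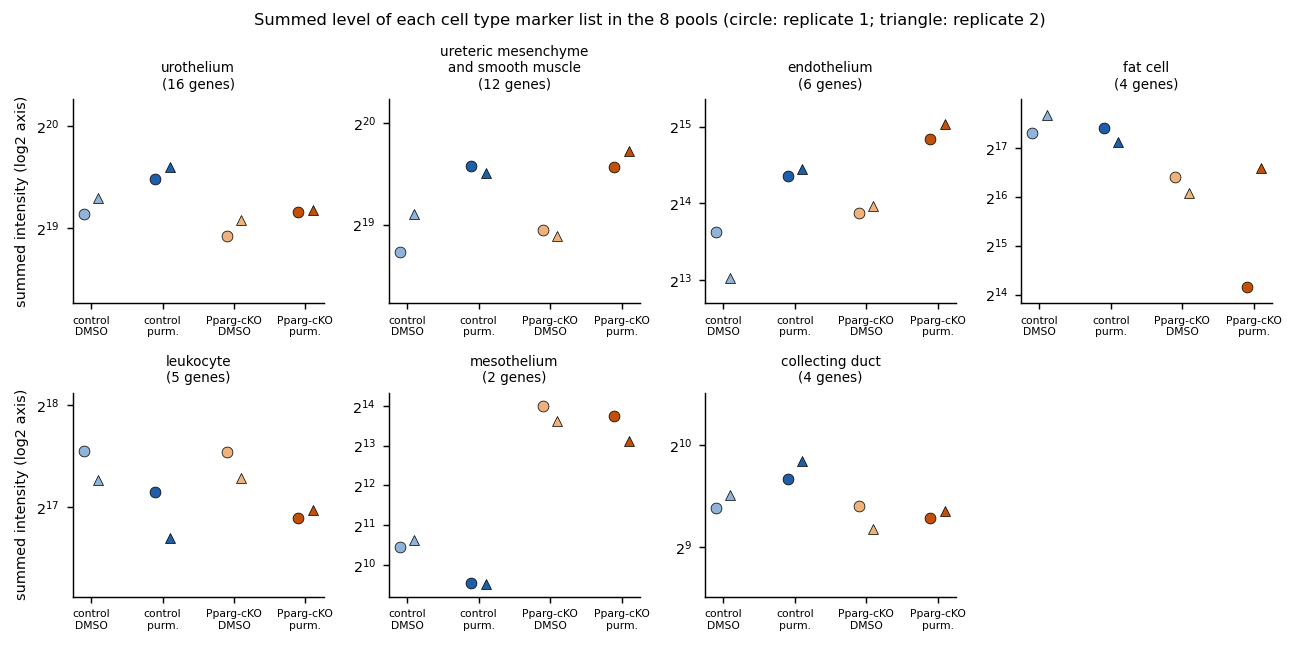
Summed normalized intensity of the tested genes of each cell type marker list (vertical axes, log2 scale, each with its own range) in the 8 pools, by group (horizontal axis; purm., purmorphamine), with a circle for replicate 1 and a triangle for replicate 2. Sums of mesenchymal and smooth muscle markers and of endothelial markers were higher with purmorphamine, as was the urothelial sum within each genotype. Sums of fat cell markers were lower in Pparg-cKO pools, and the mesothelial sum was higher there through Msln.

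The genes whose levels ran most like those of Shh, Ptch1, Hhip and Gli1 were taken from the 1949 tested genes with an SD of at least 0.5 over the 8 pools. The Pearson correlations below describe these 8 pools, which fall into 4 groups and share arrays in pairs, so that any gene with the same steps between groups scores high. Shh was most like Slc52a3 (r = 0.996), Arhgdig, S100a5, Tmprss11a and 9530036O11Rik (r = 0.992). Ptch1 was most like Foxl1 (r = 0.998), the forkhead gene of the target list, followed by Igsf10, Paqr6, Bace2 and Kcnmb4 (r = 0.977).

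Hhip was most like Lama2 (r = 0.996), a laminin chain, and then Zfp536, Zim1, Icosl and Gpc3 (r = 0.986), a cell surface proteoglycan. Gli1 was most like Col16a1 (r = 0.992), a collagen, and then Sparcl1, Greb1, Icosl and Zfp536 (r = 0.976). Icosl and Zfp536 stood in the lists of both Hhip and Gli1, and the lists of Shh and of the feedback targets had no gene in common.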

How the data were processed

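Total RNA pools were labelled with 2 dyes and hybridized in pairs to 4 arrays of 60-base probes. The authors scanned the arrays, and the intensities deposited are Agilent Feature Extraction output (version 10.7.3.1 in the submitters' processing notes, 12.2.0.7 per the file headers) of build mm9. The deposited log10 ratios equal red over green of the processed signals and set the dye direction. The score deposited in the series' value table is the authors' signed fold change of purmorphamine over DMSO, rounded to 1 decimal. Its scale and direction were found by setting its log2 against the scanner log ratios turned to purmorphamine over DMSO (r from 0.958 to 0.971 on the 4 arrays). Each array's median was 0, how the authors centred it stays unknown, and it was used as an alternative.

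Mean signals were corrected with normexp (offset 50), normalized by loess within arrays with control and outlier-flagged spots at weight 0, averaged over the 4 spots of a probe and scaled between arrays by Aquantile in limma 3.58.1 (R 4.3.3). Probes well above background in at least 3 of 4 spots in both pools of 1 group were tested. Genotypes were compared by a separate-channel fit (intraspot correlation 0.059), treatments by log ratios, with a coefficient for each genotype, both with eBayes and Benjamini-Hochberg adjustment; a gene stands by its probe of highest mean level. All 4 arrays lay on 1 slide and were scanned together. The study's rule was applied to processed signals, scaled to a 75th percentile of 1500 with a floor of 15. Named genes were the members, listed pathway genes and targets that passed in any comparison with 7 fixed ones (Smo, Gli2, Gli3, Sufu, Foxf1, Bmp4, Aldh1a2), the marker lists, and the 5 genes most like each of 4 members. The script for the tests was tested on simulated data. Some listed genes are not reported here. The members and lists were chosen with earlier results of these data known. Alternatives were the processed signals, no filter on dim probes, the mean of a gene's probes, each array left out, a replicate block, other normalizations and other thresholds of the study's rule.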

Additional observations from a re-analysis of the deposited data

How the results depend on the processing

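The number of arrays, 2 for each genotype, limits the precision, and Ihh and Dhh had signals near background. Replicate numbers mark sex and dye, and the labels do not say whether a DMSO and a purmorphamine pool shared animals. Deviations from the group means correlated at -0.15 between the DMSO groups and at 0.47 between the purmorphamine groups. Between treatments they correlated at 0.08 in control and at 0.35 in Pparg-cKO. The numbers were not taken to pair the genotypes. With the number as a replicate block, 292 genes were called for Pparg loss in DMSO, 130 with purmorphamine and 736 for the treated mutant against the DMSO control. Under this block Gli1 lost its call in the last of these (1.31, adjusted p = 0.060). For the agonist in control Ptch1 lost its call (1.00, adjusted p = 0.053). There 0 members and 298 genes were called, beside 243 genes without the block. For the agonist in Pparg-cKO Shh passed (0.95, adjusted p = 0.038), with 905 genes called, beside 942 without the block.

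The scanner's processed signals called 436 genes for Pparg loss in DMSO, 205 with purmorphamine, and 0 genes and 0 members for the agonist in either genotype. With them the agonist ratios were 1.09 for Ptch1 in control and 1.85 for Ptch1 and 2.22 for Hhip in Pparg-cKO. The series' value table also called 0 genes and 0 members, at 1.12, 1.85 and 2.20. Without the filter on dim probes 0 genes were called in control, Ptch1 included (1.00), and 289 in Pparg-cKO. The mean of a gene's probes called 2 members and 300 genes in control, with Hhip at 1.59 (adjusted p = 0.020). Without normalization between arrays, 889 genes were called for Pparg loss with purmorphamine. Ptch1 there turned from -0.07 to 0.021 with processed signals and 0.32 with the mean of its probes, and the Ihh difference turned from -0.14 to 0.12 with processed signals and with the value table. For these shifts the cause was not tested.

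At a fold of 2 in place of 1.5, the study's rule passed 405 genes and 1 member for Pparg loss in DMSO, 357 and 1 with purmorphamine, 300 and 1 for the agonist in control, 470 genes in Pparg-cKO and 675 for the treated mutant.

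With each array left out in turn, Dhh ran from -0.40 to -0.08 for Pparg loss in DMSO and from -0.44 to -0.02 for the agonist in control. Gli1 ran from 0.08 to 0.43 for Pparg loss with purmorphamine. Leaving out each array in turn also gave these ranges of log2 change. For Pparg loss in DMSO they were -3.04 to -2.84 for Shh, 1.30 to 1.41 for Ihh, -0.76 to 0.0035 for Hhip and -0.36 to 0.31 for Gli1, with 0 to 2 members and 40 to 408 genes called. With purmorphamine they were -2.45 to -1.82 for Shh, 1.16 to 1.30 for Ihh, -0.18 to 0.41 for Dhh and -0.25 to 0.11 for Ptch1, with 0 to 2 members and 17 to 316 genes. For the treated mutant they were -2.30 to -1.68 for Shh, -0.40 to 0.18 for Dhh, 0.78 to 1.06 for Ptch1, 1.43 to 2.19 for Hhip and 0.98 to 1.65 for Gli1, with 1 to 4 members and 212 to 1289 genes. For the agonist in control they were -0.11 to 0.40 for Shh, 0.84 to 1.16 for Ptch1, 0.93 to 1.72 for Hhip and -0.13 to 0.31 for Pparg, with 0 to 2 members and 0 to 606 genes. In Pparg-cKO they were 0.55 to 1.36 for Shh, -0.013 to 0.16 for Ihh, -0.23 to 0.49 for Dhh, 1.31 to 1.37 for Gli1 and -0.10 to 0.25 for Gli3, with 164 to 1087 genes. For the difference they were 0.40 to 1.21 for Shh, -0.0064 to 0.72 for Dhh, 0.47 to 1.26 for Hhip and -0.23 to 0.78 for Gli1, with 0 to 39 genes.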
